A study of Zea mays with 18 samples.

Results

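The genes described here had a higher transcript level in leaves of the maize line labelled *nf-ya1* than in leaves of the inbred line W22. This held before heat stress (0 h), after 1 h of mild heat stress (1 h) and after 2 h of recovery (R2h). A gene was taken when its mean log2(FPKM + 1) over 3 replicates was higher in *nf-ya1* than in W22 by at least 1.5 at each of the 3 times, and when the lowest *nf-ya1* library lay above the highest W22 library at each time. FPKM counts sequenced fragments relative to transcript length and to the library's mapped fragments, and 1 was added so that a value of 0 has a logarithm. Of the 36321 genes listed, 242 (0.666%) met this rule. The same rule with the sign turned, for genes lower in *nf-ya1* at all times, was met by 57 genes. Because the *nf-ya1*/W22 differences chose the 242 genes, those differences are given as a description with no test.

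By the deposited protocol, RNA came from the lamina of the first fully expanded leaf, without the midrib. The *nf-ya1* line has the W22 background and carries a Mutator transposon insertion in *ZmNF-YA1* (Zm00001eb005690), and W22 is its wild-type control. Both genotypes were sampled at the same 3 times with 3 libraries per group, so the 6 groups hold 18 libraries. The 0 h plants grew under normal conditions, the 1 h plants were in heat stress, and the R2h plants had been returned from heat stress, although the length of the heat stress before R2h is given for the study's qRT-PCR seedlings and not for these libraries. These times follow the sample titles, which call the heat stress mild. Longer times stand in the protocol text of the deposit. A single insertion line was compared with W22, and no second allele was sequenced, so the insertion and any other difference between these seed stocks cannot be told apart. The study's methods call the samples of a group biological replicates. Neither they nor the labels say how many plants entered a library, and p-values measure the spread between these libraries.

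NF-YA proteins are the DNA-binding subunits of nuclear factor Y, a trimeric transcription factor that recognises CCAAT boxes. In leaves, heat stress turns on heat shock factors and with them the small heat shock proteins, which hold unfolding proteins in a soluble state, while many genes of growth, photosynthesis and cell wall synthesis are turned down. Cellulose synthases are plasma membrane enzymes that spin cellulose chains into the growing cell wall.

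*ZmNF-YA1* itself was not absent from the libraries labelled *nf-ya1*. At 0 h it had 13.0, 12.6 and 21.2 FPKM there, all below the 23.1, 22.8 and 26.6 FPKM of W22. The genotypes overlapped at 1 h (43.2, 36.1 and 27.0 FPKM against 49.6, 43.7 and 39.1 FPKM). They also overlapped at R2h (8.97, 12.9 and 9.38 FPKM against 11.4, 15.1 and 12.4 FPKM). The study describes the mutant as lacking *ZmNF-YA1* transcripts and reports a lower level than in W22 by qRT-PCR. The genotype names below are therefore those of the labels. Libraries summed to 804977 to 928910 FPKM, and since reads per gene were not analysed here, the depth behind a single value is unknown. The leaf label was checked on 20 annotated chlorophyll A-B binding proteins outside the 242 genes. Their summed level was 65221 to 68364 FPKM in *nf-ya1* and 48009 to 53281 FPKM in W22 at 0 h, 25828 to 65391 FPKM and 12859 to 21261 FPKM at 1 h, and 74210 to 89509 FPKM and 50163 to 57025 FPKM at R2h. Leaf markers were thus abundant in both genotypes and their summed level was higher in every *nf-ya1* library than in the W22 libraries of the same time. Their part in the results below was not tested. The 8 annotated histone genes, as markers of dividing cells, summed to 144 to 533 FPKM in the *nf-ya1* libraries and to 112 to 195 FPKM in the W22 libraries, and their part was not tested. In bulk leaf tissue, more cells of a type and more RNA per cell cannot be told apart.

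The 242 genes were often near silent in W22 and moderately expressed in *nf-ya1*. Over 9 libraries, the mean level of a member ran from 2.59 to 2180 FPKM in *nf-ya1*, with a median of 21.2 FPKM, and from 0 to 597 FPKM in W22, with a median of 0.733 FPKM. Genes were tested where 3 or more libraries had an FPKM of 1 or more, and over these 22572 genes the medians of these means were 7.02 FPKM in *nf-ya1* and 5.81 FPKM in W22. In *nf-ya1*, 21 members averaged 100 FPKM or more, 170 averaged 10 to 100 FPKM and 51 were below 10 FPKM. In W22, 41 members averaged 5 FPKM or more, 65 averaged 1 to 5 FPKM and 136 were below 1 FPKM. All 242 members were above 0 in all 9 *nf-ya1* libraries. In the W22 libraries, 27 members were listed at 0 in all 9, 82 in 1 to 8, and 133 in none. All 242 also passed the filter on low values, 120 of them through the *nf-ya1* libraries alone, which the rule makes likely.

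By library, the median member had 15.1, 24.1 and 24.5 FPKM in *nf-ya1*, against 0.775, 0.85 and 0.62 FPKM in W22 at 0 h. At 1 h it had 16.2, 10.9 and 6.73 FPKM in *nf-ya1*, against 0.14, 0.195 and 0.175 FPKM in W22. At R2h it had 15.9, 12.9 and 13.9 FPKM in *nf-ya1*, against 0.705, 0.705 and 0.8 FPKM in W22. The third *nf-ya1* library of 1 h held the lowest of the *nf-ya1* medians, and the W22 medians were lowest at 1 h. Members together took 0.667 to 2.31% of a library's FPKM in *nf-ya1* and 0.0754 to 0.202% in W22.

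**Figure D1:**
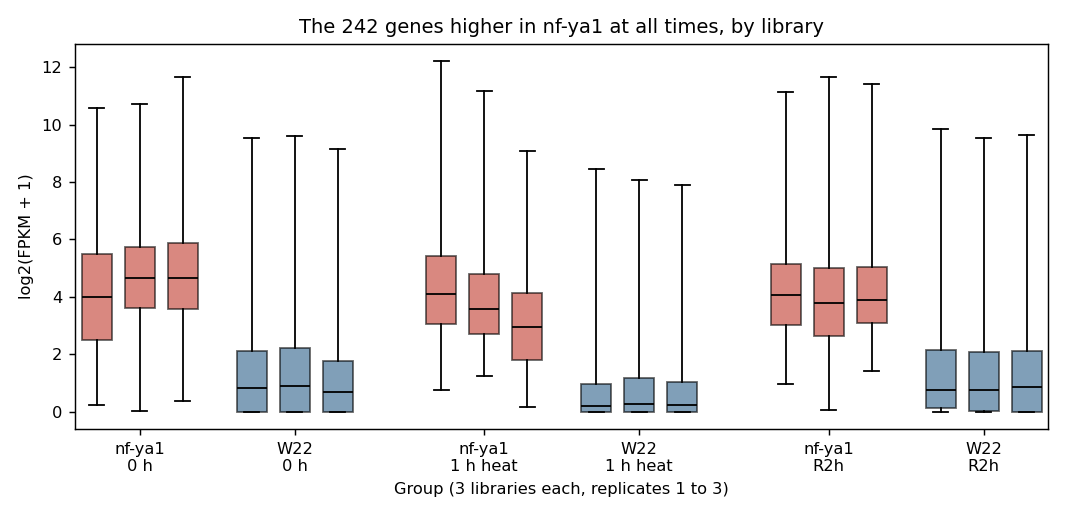
Level of the 242 genes in each of the 18 libraries, as log2(FPKM + 1), with the *nf-ya1* libraries left of the W22 libraries at each time. Boxes span the quartiles with a line at the median, and whiskers reach the lowest and highest member. The median member lay between 6.73 and 24.5 FPKM in the *nf-ya1* libraries and between 0.14 and 0.85 FPKM in the W22 libraries.

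The differences chosen by the rule had medians of 3.05 at 0 h, 2.80 at 1 h and 2.38 at R2h on the log2(FPKM + 1) scale, with highest values of 9.57, 8.94 and 8.02. Over all tested genes the median *nf-ya1* minus W22 difference was 0.24, −0.05 and −0.02 at the same times. The largest of a member's 3 differences was at 0 h for 100 members, at 1 h for 80 and at R2h for 62. For 86 members the 3 differences lay within 1 of each other, and for 18 they spanned more than 3. The smallest of the 3 differences was at least 2 for 129 members, at least 3 for 45, at least 4 for 14 and at least 5 for 4. Just inside the threshold, the smallest difference was 1.5003, 1.5035 and, for the acyl-CoA oxidase/dehydrogenase gene Zm00001eb200160, 1.5075. Just outside it were the BCNT-C domain gene Zm00001eb340570 at 1.4997 and 2 unannotated genes at 1.4994 and 1.4878. Of the 242 members, 232 at 0 h, 226 at 1 h and 200 at R2h were also called higher in *nf-ya1* by limma (adjusted p of 0.01 or less and log2 fold change of 1 or more), beside 14.9%, 9.06% and 5.14% of all tested genes, and nothing is read from these counts since the rule used the same differences.

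Replicates of *nf-ya1* were far apart for these genes. The median SD of a member over 3 *nf-ya1* libraries, on the log2 scale, was 0.79 at 0 h, 0.62 at 1 h and 0.39 at R2h, against 0.13, 0.10 and 0.14 over the W22 libraries. Over all tested genes the median SD was 0.27, 0.22 and 0.17 in *nf-ya1* and 0.14, 0.15 and 0.12 in W22. The levels of members in *nf-ya1* are therefore less precise than those of most genes. Part of this spread was shared, as the median member had 16.2, 10.9 and 6.73 FPKM in the *nf-ya1* libraries of 1 h. In most members with a functional annotation the third *nf-ya1* library of R2h lay between the others. Zm00001eb011880 had 61.5, 721 and 383 FPKM, and Zm00001eb220040 had 18.1, 0.05 and 8.08 FPKM. In most annotated members, too, the second *nf-ya1* library of 1 h lay between the first and the third. Zm00001eb011880 had 4694, 2303 and 40.9 FPKM there. Over all members such genes were not counted. The fit took the 3 libraries of a group as independent, which was not tested. Every SE and p-value given for *nf-ya1* rests on this. Many members sit near 0 in W22, where the log2(FPKM + 1) scale compresses the spread.

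Of the members, 228 had an ID of the maize gene set and 14 (5.79%) an ID of a transcript outside it, beside 5.999% of tested genes. These 14 averaged 3.48 to 42.6 FPKM in *nf-ya1* and 0 to 1.03 FPKM in W22. A functional annotation was at hand for 27 members, with 22 distinct descriptions, and the other 215 are given by their IDs or as ranges. The annotation used is an alphabetical part, and the study picked all of its genes as changed in these libraries. A list of annotated genes may thus lack genes of its family. Its share of calls is no fair match to that of all tested genes. Gene set IDs run along the genome, and 10 of the 228 members (4.39%) stood next to another member in ID order, beside 1.36% of all gene set IDs with a member next to them. With up to 10 other genes between neighbours, 54 members (23.7%) had another member near, beside 13.4% of all gene set IDs. The 54 members formed 26 runs, 24 of them pairs and 2 of them triplets. The genes of 1 pair, Zm00001eb164880 and Zm00001eb164900, had the same FPKM in all 18 libraries, so the same values count as 2 members. The longest runs held only unannotated genes.

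Of the annotated members, 4 carried the words cellulose synthase in their annotation and are called cellulose synthases here. The annotation does not say what each of these enzymes makes. Zm00001eb172230 had 128, 159 and 299 FPKM in *nf-ya1*, against 20.0, 21.1 and 17.5 FPKM in W22 at 0 h. Its 1 h levels were 49.3, 37.5 and 27.7 FPKM in *nf-ya1*, against 10.1, 13.2 and 14.1 FPKM in W22, and at R2h 79.99, 48.4 and 61.7 FPKM against 11.8, 24.2 and 21.3 FPKM. The lowest *nf-ya1* library of any time was thus above every W22 library of any time. Zm00001eb415630 had 142, 175 and 268 FPKM in *nf-ya1*, against 12.4, 12.9 and 10.2 FPKM in W22 at 0 h. After 1 h of heat it had 36.6, 26.7 and 16.8 FPKM in *nf-ya1*, against 6.39, 8.15 and 5.38 FPKM in W22, and at R2h 46.4, 20.2 and 30.5 FPKM against 7.74, 8.94 and 7.35 FPKM. For this gene, too, no *nf-ya1* library reached down to a W22 level.

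The other cellulose synthase members carry the RING-type zinc finger that lies at the amino terminus of these enzymes. Zm00001eb304560 had 76.3, 70.3 and 113 FPKM in *nf-ya1*, against 4.73, 5.35 and 4 FPKM in W22 at 0 h. At 1 h it had 16.3, 10.4 and 6.55 FPKM in *nf-ya1*, against 0.96, 1.68 and 1.59 FPKM in W22, and at R2h 16.8, 4.58 and 10.3 FPKM against 2.02, 1.96 and 1.76 FPKM. Its second R2h library in *nf-ya1* was below the first 2 W22 libraries of 0 h. Zm00001eb283110 had 95.5, 106 and 175 FPKM in *nf-ya1*, against 14.6, 10.8 and 12.3 FPKM in W22 at 0 h. Under heat it had 12.9, 8.30 and 4.18 FPKM in *nf-ya1*, against 1.35, 2.45 and 1.53 FPKM in W22, and at R2h 22.0, 9.96 and 17.1 FPKM against 4.30, 5.11 and 4.14 FPKM. Of the 4 genes, this one had the lowest 1 h levels in *nf-ya1*, which reached below its W22 levels of 0 h.

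Within *nf-ya1*, the 4 cellulose synthases fell with 1 h of heat, a comparison between times that the rule did not make, although its libraries entered the rule. The log2 fold change of 1 h against 0 h was −2.27 for Zm00001eb172230 (SE 0.31, limma adjusted p = 7.55e-06), −2.84 for Zm00001eb415630 (SE 0.30, adjusted p = 5.22e-07), −2.91 for Zm00001eb304560 (SE 0.35, adjusted p = 1.86e-06) and −3.80 for Zm00001eb283110 (SE 0.33, adjusted p = 6.94e-08). With libraries scaled by median ratios, the falls were −1.12, −1.70, −1.80 and −2.71 and all passed the thresholds. At R2h the 4 genes were still below 0 h in *nf-ya1*, with log2 fold changes of −1.54 (SE 0.31, adjusted p = 0.000887), −2.58 (SE 0.30, adjusted p = 6.98e-06), −3.04 (SE 0.35, adjusted p = 5.76e-06) and −2.88 (SE 0.33, adjusted p = 6.16e-06), in the same order. The R2h fall of Zm00001eb172230 was not called when the fit held the groups compared alone (adjusted p = 0.0215).

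In W22, Zm00001eb283110 fell at 1 h with a log2 fold change of −2.30 (SE 0.33, limma adjusted p = 2.91e-05). Zm00001eb304560 also fell in W22 at 1 h, by 1.25 on the log2 scale (SE 0.35, adjusted p = 0.00588), a call lost without each of the 6 W22 libraries compared (adjusted p 0.0109 to 0.0289) and under median-ratio scaling (−0.77, adjusted p = 0.0574). The values of Zm00001eb172230 and Zm00001eb415630 in W22 at 1 h were −0.62 (adjusted p = 0.0968) and −0.76 (adjusted p = 0.0397), which missed the thresholds. Whether the genotypes differed in these responses was not tested, since such a difference is made of the same values as the rule.

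The members were part of a wider set of 29 genes annotated with the words cellulose synthase, of which 27 were tested. This list was drawn up after the members had been seen. Its genes, like all annotated ones, were picked by the study as changed in these libraries. Nothing is therefore read from their shares beside those of all tested genes. Without the 4 members, which the rule chose for being higher, 23 tested genes remained. In *nf-ya1*/W22 the test called 17 of them higher (73.9%) and 1 lower (4.35%) at 0 h, beside 14.9% and 5% of all tested genes. At 1 h 9 were higher (39.1%) and 0 lower, beside 9.06% and 7.33%, and at R2h 4 were higher (17.4%) and 0 lower, beside 5.14% and 3.1%. The median difference of the 23 genes was 2.57 at 0 h, 1.09 at 1 h and 0.50 at R2h. With 1 h of heat, 17 of the 23 fell (73.9%) and 2 rose (8.7%) in *nf-ya1*, beside 43.7% and 7.62% of all tested genes. In W22 6 fell (26.1%) and 0 rose, beside 20.7% and 5.79%. The 25 genes outside the members summed to 881 to 1357 FPKM in *nf-ya1* and 431 to 439 FPKM in W22 at 0 h. They summed to 315 to 335 FPKM in *nf-ya1* and 133 to 144 FPKM in W22 at 1 h, and to 371 to 387 FPKM and 356 to 403 FPKM at R2h. The sums of the genotypes overlapped at R2h only.

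**Figure D2:**
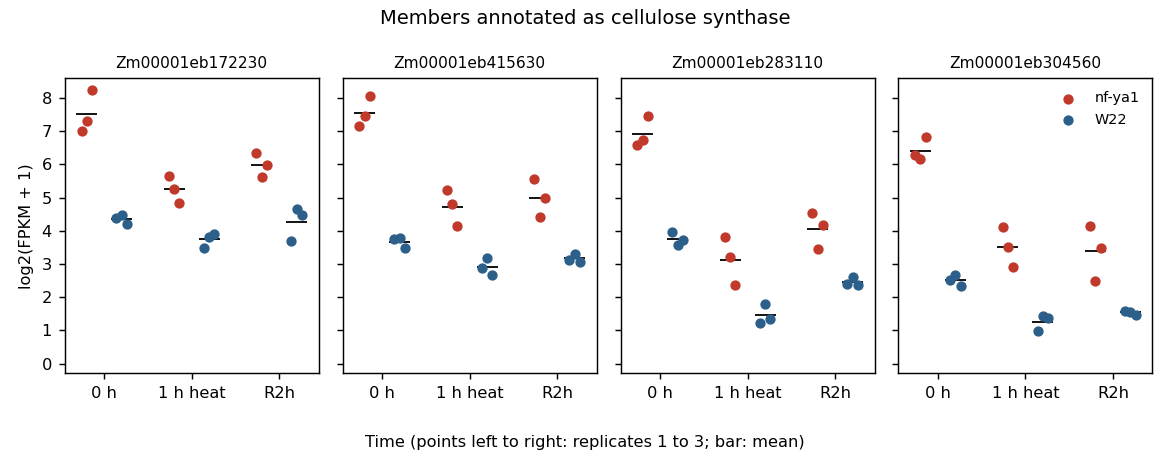
Level of the 4 cellulose synthase members in every library, as log2(FPKM + 1), with *nf-ya1* left of W22 at each time and a bar for the mean of 3 replicates. All 4 genes were highest in *nf-ya1* at 0 h, where the lowest library had 70.3 FPKM, and the highest W22 value was 24.2 FPKM.

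The members included 3 small heat shock proteins of the alpha crystallin/Hsp20 domain family. They were all but silent in W22, also under heat. Zm00001eb011880 had 79.6, 76.8 and 9.22 FPKM in *nf-ya1* at 0 h, 4694, 2303 and 40.9 FPKM at 1 h, and 61.5, 721 and 383 FPKM at R2h, while in W22 it was listed at 0 in 8 libraries and at 2.84 FPKM in 1 library of 1 h. Zm00001eb395330 had 3.24, 1.91 and 2.52 FPKM in *nf-ya1* at 0 h, 2735, 953 and 9.53 FPKM at 1 h, and 7.89, 101 and 53.3 FPKM at R2h, while in W22 it was listed at 0 in 8 libraries and at 0.21 FPKM in the other. Zm00001eb395370 had 6.83, 4.93 and 3.86 FPKM in *nf-ya1* at 0 h, 1093, 599 and 14.7 FPKM at 1 h, and 10.1, 140 and 68.3 FPKM at R2h, while in W22 it was listed at 0 in 7 libraries and at 0.13 and 0.29 FPKM in the others. All 3 genes shared one order of libraries in heat, with the first *nf-ya1* library of 1 h high and the third low. In recovery the first *nf-ya1* library was the lowest for each of them. The order of 1 h was not particular to these 3 genes. In the same libraries the median member had 16.2, 10.9 and 6.73 FPKM. The chlorophyll A-B binding proteins outside the members summed to 65391, 42039 and 25828 FPKM. The 40 other Hsp20 domain genes summed to 156473, 150864 and 161453 FPKM and did not share it.

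In *nf-ya1*, Zm00001eb395330 rose with 1 h of heat by a log2 fold change of 6.42 (SE 1.39, limma adjusted p = 0.000579), Zm00001eb395370 by 5.16 (SE 1.15, adjusted p = 0.000738) and Zm00001eb011880 by 4.26 (SE 1.37, adjusted p = 0.00998). The rise of Zm00001eb011880 stands at the threshold and was lost without any 1 of 5 libraries, with adjusted p = 0.0119 and 0.0118 without the first and second *nf-ya1* library of 0 h, 0.0546 without the third, and 0.0619 and 0.0499 without the first and second *nf-ya1* library of 1 h. Without the third *nf-ya1* library of 1 h its log2 fold change was 6.36 (adjusted p = 3.25e-05). The other calls held when any single library was left out, but none of the 3 held in a fit of the groups compared alone, which gave adjusted p = 0.0289 for Zm00001eb395330, 0.0263 for Zm00001eb395370 and 0.0885 for Zm00001eb011880. In recovery the log2 fold changes against 0 h were 3.38, 2.97 and 2.69 in the order of the rises, and none passed the thresholds (adjusted p = 0.0586, 0.046 and 0.122).

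The levels of their family are set beside these 3 genes. Of 43 annotated Hsp20 domain genes, a list drawn up after the members had been seen, 41 were tested. The study had picked these genes, too, as changed in these libraries, so nothing is read from their shares. Without the 3 members, 38 tested genes remained. In *nf-ya1*/W22 the test called 9 of them higher (23.7%) and 13 lower (34.2%) at 0 h, 5 (13.2%) and 1 (2.63%) at 1 h, and 7 (18.4%) and 0 in recovery, beside the shares of all tested genes given for the cellulose synthases. With 1 h of heat 23 of the 38 rose (60.5%) and 7 fell (18.4%) in *nf-ya1*, beside 7.62% and 43.7% of all tested genes. In W22 23 rose (60.5%) and 1 fell (2.63%), beside 5.79% and 20.7%. The 40 genes outside the members summed to 947 to 2295 FPKM in *nf-ya1* and 4653 to 5238 FPKM in W22 at 0 h, to 150864 to 161453 FPKM and 143220 to 155731 FPKM at 1 h, and to 14695 to 23578 FPKM and 6581 to 11434 FPKM at R2h. The family as a whole was thus strongly expressed under heat in W22, where the 3 members were near 0. The third *nf-ya1* library of 1 h, lowest for the 3 members, had the highest of the 1 h sums in *nf-ya1* (161453 FPKM).

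**Figure D3:**
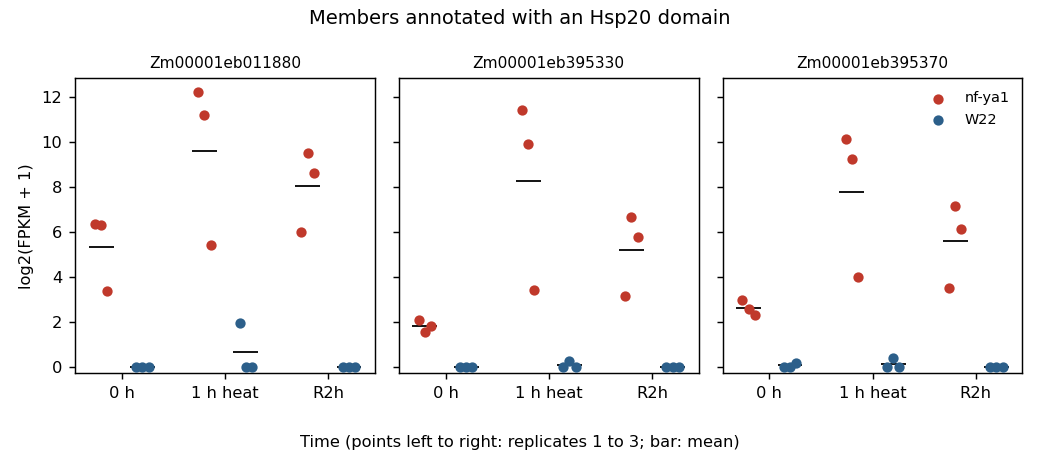
Level of the 3 Hsp20 domain members in every library, as log2(FPKM + 1), with *nf-ya1* left of W22 at each time and a bar for the mean of 3 replicates. The *nf-ya1* libraries of 1 h span 40.9 to 4694 FPKM for Zm00001eb011880, and in W22 the highest value of any of the 3 genes was 2.84 FPKM.

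Other chaperone genes were also among the members. The DnaJ gene Zm00001eb146070, a co-chaperone that stimulates Hsp70, had 11.8, 14.5 and 16.3 FPKM in *nf-ya1*, against 2.61, 2.62 and 2.40 FPKM in W22 at 0 h. Its 1 h levels were 10.4, 5.71 and 1.66 FPKM in *nf-ya1*, against 0.75, 1.29 and 1.04 FPKM in W22, and at R2h 36.2, 13.5 and 24.2 FPKM against 5.30, 6.28 and 7.53 FPKM. Its mean was thus highest in recovery in both genotypes. It fell at 1 h in *nf-ya1* with a log2 fold change of −1.36 (SE 0.40, limma adjusted p = 0.00592), a call lost without the second or the third library of 0 h (adjusted p = 0.016 and 0.0217), without the second or the third of 1 h (adjusted p = 0.0108 and 0.0329) and under median-ratio scaling (−0.36, adjusted p = 0.45). BAG proteins are co-chaperones that bind Hsp70 and release its substrates. The BAG domain gene Zm00001eb318990 had 82.5, 102 and 170 FPKM in *nf-ya1*, against 7.66, 7.25 and 6.04 FPKM in W22 at 0 h. It had 40.5, 29.9 and 21.9 FPKM in *nf-ya1*, against 6.23, 6.88 and 7.28 FPKM in W22 at 1 h, and 42.5, 13.9 and 25.9 FPKM against 4.92, 8.37 and 6.91 FPKM at R2h. It fell in *nf-ya1* by 1.89 on the log2 scale at 1 h (SE 0.34, adjusted p = 0.000104) and by 2.14 in recovery (SE 0.34, adjusted p = 0.000116), the 1 h call being lost under median-ratio scaling (−0.74, adjusted p = 0.0432) and the R2h call in a fit of the groups compared alone (adjusted p = 0.0168). In W22 its log2 fold changes were −0.03 at 1 h and −0.07 at R2h (SE 0.34 each), and neither was called. Of 11 annotated DnaJ genes, Zm00001eb146070 included, 10 were tested. In *nf-ya1*/W22 2 were called higher and 4 lower at 0 h, 2 and 0 at 1 h, and 2 and 0 in recovery. Of 10 annotated BAG domain genes, Zm00001eb318990 included, 8 were tested, with 3 higher and 1 lower at 0 h, 2 and 0 at 1 h, and 2 and 1 in recovery. Both lists are too small to set beside the shares of all genes, and the annotation used may lack further genes of these families. Heat shock proteins and chaperones were counted over the same partial annotation, so those described under other letters may be missing. The study had picked these genes, too, as changed in these libraries, so nothing is read from their shares. The list holds 88 annotated genes, of which 85 were tested and 4 were members, the 3 Hsp20 genes and Zm00001eb146070. Without these 4, the test called 13 of 81 genes higher (16%) and 19 lower (23.5%) in *nf-ya1*/W22 at 0 h, beside 14.9% and 5% of all tested genes, 12 (14.8%) and 5 (6.17%) at 1 h, beside 9.06% and 7.33%, and 11 (13.6%) and 1 (1.23%) in recovery, beside 5.14% and 3.1%.

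Some of the largest differences belonged to genes that W22 scarcely expressed. The chlorophyll A-B binding protein Zm00001eb161390, of a family that holds chlorophyll in the light-harvesting antennae, averaged 636 FPKM in *nf-ya1* and 0.891 FPKM in W22, and had the second largest smallest difference (5.57). The third *nf-ya1* library of 1 h stood at 0.27 FPKM beside 534 and 184 FPKM in the others, against 0.17, 0 and 0 FPKM in W22. Its 1 h change in *nf-ya1* was −4.03 with an SE of 1.40 and did not pass the threshold (limma adjusted p = 0.0158). The gene next to it in ID order, the unannotated Zm00001eb161380, was the most abundant member. It had 1537, 1680 and 3242 FPKM in *nf-ya1*, against 732, 775 and 567 FPKM in W22 at 0 h, 2957, 1434 and 534 FPKM against 349, 267 and 238 FPKM at 1 h, and 2261, 3221 and 2750 FPKM against 915, 736 and 794 FPKM at R2h. Unlike Zm00001eb161390, it was abundant in W22 as well. Of the 21 annotated photosynthesis genes, all chlorophyll A-B binding proteins, the 20 other than this member had 1 higher (5%) and 0 lower in *nf-ya1*/W22 at 0 h, 11 (55%) and 0 at 1 h, and 2 (10%) and 0 in recovery, beside 14.9%, 9.06% and 5.14% of all tested genes higher.

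The largest smallest difference of all members (5.59) was that of the unannotated Zm00001eb061680. It had 4.32, 133 and 234 FPKM in *nf-ya1*, against 0, 0.22 and 0.22 FPKM in W22 at 0 h. At 1 h it had 211, 118 and 44.9 FPKM in *nf-ya1*, against 0, 0.23 and 0.22 FPKM in W22, and at R2h 182, 178 and 164 FPKM against 0.46, 0.22 and 0.24 FPKM. Its first *nf-ya1* library of 0 h was low beside the other 8. The plant lipid transfer protein Zm00001eb094610, of a family of small secreted proteins that carry lipids, had 99.6, 186 and 298 FPKM in *nf-ya1*, against 0.14, 0.56 and 0.14 FPKM in W22 at 0 h. After 1 h of heat it had 134, 51.3 and 10.5 FPKM in *nf-ya1* and was listed at 0 in W22, and at R2h it had 92.3, 50.1 and 66.2 FPKM against 0.42, 0 and 0.57 FPKM. It fell in *nf-ya1* at 1 h by 2.04 on the log2 scale (SE 0.62, adjusted p = 0.00693), a call lost without the second or the third library of 0 h (adjusted p = 0.0184 and 0.0365), without the second or the third of 1 h (adjusted p = 0.0125 and 0.0315), under median-ratio scaling (−0.90, adjusted p = 0.199) and in a fit of the groups compared alone (adjusted p = 0.0929).

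The kinase Zm00001eb220040, of the aspartate/glutamate/uridylate kinase family, was the 1 annotated gene among the 27 members listed at 0 in all 9 W22 libraries. It had 34.1, 41.4 and 20.3 FPKM in *nf-ya1* at 0 h, 8.45, 6.39 and 3.36 FPKM at 1 h, and 18.1, 0.05 and 8.08 FPKM at R2h. Its second *nf-ya1* library of R2h was thus near the W22 value. Its falls of −2.23 at 1 h (SE 0.69, limma adjusted p = 0.00811) and −2.48 in recovery (SE 0.69, adjusted p = 0.00871) in *nf-ya1* were each lost without any 1 of several libraries, with adjusted p up to 0.0361 at 1 h (without the third library of 1 h) and up to 0.0308 at R2h (without the second library of 0 h). The 27 members with no W22 signal averaged 2.59 to 94.4 FPKM in *nf-ya1*, with a median of 11.3 FPKM. They made up 11.2% of the members, while 360 tested genes (1.60%) were listed at 0 in all 9 W22 libraries and 13 in all 9 *nf-ya1* libraries. The rule favours genes low in W22, so nothing is read from these shares. A further 2 annotated members were at most 0.07 FPKM in any W22 library. The 3-oxo-5-alpha-steroid 4-dehydrogenase Zm00001eb073390 had 0.52 to 6.53 FPKM in *nf-ya1*. The acyl-CoA oxidase/dehydrogenase gene Zm00001eb200160, of a family with members that start fatty acid beta-oxidation, had 0.82 to 4.58 FPKM. Both were among the least abundant members.

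Enzymes of small-molecule metabolism followed several courses in heat. The class I/II aminotransferase Zm00001eb178340, of a family that moves amino groups between amino acids and keto acids, had 3.98, 25.4 and 8.73 FPKM in *nf-ya1*, against 0.29, 0.59 and 0.37 FPKM in W22 at 0 h. Under heat it had 114, 181 and 187 FPKM in *nf-ya1*, against 1.41, 2.23 and 1.62 FPKM in W22, and at R2h 28.7, 14.9 and 24.2 FPKM against 0.63, 1.14 and 0.88 FPKM. It rose in *nf-ya1* at 1 h with a log2 fold change of 3.86 (SE 0.42, limma adjusted p = 7.63e-07). The W22 change was 0.95 (adjusted p = 0.0629) and missed the thresholds, and since W22 levels reached at most 2.23 FPKM, the log2(FPKM + 1) scale understates it.

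Chalcone isomerase closes the ring that makes flavanones from chalcones. Its gene Zm00001eb163860 had 98.3, 122 and 132 FPKM in *nf-ya1*, against 16.0, 16.6 and 13.7 FPKM in W22 at 0 h. At 1 h it had 50.6, 30.6 and 19.2 FPKM in *nf-ya1*, against 0.98, 0.86 and 0.55 FPKM in W22, and at R2h 22.4, 27.5 and 23.3 FPKM against 7.22, 3.81 and 4.29 FPKM. It fell in both genotypes at both times. The 1 h log2 fold change was −1.87 in *nf-ya1* (SE 0.27, adjusted p = 1.21e-05) and −3.20 in W22 (SE 0.27, adjusted p = 1.4e-07), and the R2h change was −2.21 (SE 0.27, adjusted p = 1.01e-05) and −1.46 (SE 0.27, adjusted p = 0.00117). Under median-ratio scaling the 1 h fall in *nf-ya1* was −0.73 and was not called (adjusted p = 0.023). The list of terpene, benzoxazinoid and phenylpropanoid synthesis held 10 annotated genes with this 1 member, and of the other 7 tested, 3 were higher and 1 lower in *nf-ya1*/W22 at 0 h, 1 and 0 at 1 h, and 1 and 0 in recovery, too few to set beside the shares of all genes.

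Aldehyde dehydrogenases oxidise reactive aldehydes to acids, and 2 of 16 annotated ones were members. Of the other 14, all tested, 1 was called higher (7.14%) and 1 lower (7.14%) in *nf-ya1*/W22 at 0 h, beside 14.9% and 5% of all tested genes, 0 and 1 at 1 h, and 0 and 3 in recovery. Zm00001eb160820 had 91.1, 50.1 and 53.9 FPKM in *nf-ya1*, against 20.7, 22.0 and 15.1 FPKM in W22 at 0 h. Its 1 h levels were 23.2, 11.6 and 5.6 FPKM in *nf-ya1*, against 1.23, 1.91 and 2.43 FPKM in W22, and at R2h 48.5, 49.9 and 49.2 FPKM against 12.1, 11.9 and 11.7 FPKM. It fell at 1 h in *nf-ya1* by 2.34 (SE 0.34, adjusted p = 1.59e-05) and in W22 by 2.83 (SE 0.34, adjusted p = 5.62e-06) on the log2 scale, and in both genotypes the R2h change missed the thresholds (−0.34 and −0.63). Zm00001eb248870 was lower in W22, with 54.9, 42.1 and 312 FPKM in *nf-ya1*, against 0.44, 0.66 and 0.69 FPKM in W22 at 0 h. It had 45.7, 19.2 and 4.72 FPKM in *nf-ya1*, against 0, 0.19 and 0 FPKM in W22 at 1 h, and 12.6, 14.8 and 12.4 FPKM against 0.78, 0.64 and 0.96 FPKM at R2h. The third *nf-ya1* library of 0 h was high and the third of 1 h low. Its falls in *nf-ya1*, −2.38 at 1 h (SE 0.66, adjusted p = 0.00394) and −2.68 in recovery (SE 0.66, adjusted p = 0.00388), were both lost without the third library of 0 h (adjusted p = 0.0227 and 0.0168), the first also without the third library of 1 h (adjusted p = 0.0256), and the second without any 1 of the R2h libraries (adjusted p 0.0105 to 0.0141).

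Alternative oxidase carries electrons past the proton-pumping part of the mitochondrial respiratory chain. Zm00001eb251680 had 3.68, 23.5 and 12.8 FPKM in *nf-ya1*, against 0.90, 1.09 and 0.95 FPKM in W22 at 0 h, 18.3, 13.5 and 12.4 FPKM against 0.29, 0.30 and 0.42 FPKM at 1 h, and 10.2, 11.1 and 12.4 FPKM against 1.79, 1.23 and 1.05 FPKM at R2h. No heat comparison of this gene passed the thresholds. Of the 4 annotated alternative oxidases, all tested and Zm00001eb251680 included, 1 was called higher in *nf-ya1*/W22 at 0 h, 3 at 1 h and 2 in recovery, with 0 lower. The alpha/beta hydrolase Zm00001eb211300 had 17.2, 50.1 and 42.0 FPKM in *nf-ya1*, against 4.36, 6.30 and 3.31 FPKM in W22 at 0 h, 52.9, 54.1 and 51.4 FPKM against 1.72, 2.63 and 2.21 FPKM at 1 h, and 56.6, 46.7 and 49.9 FPKM against 7.71, 8.66 and 7.30 FPKM at R2h. Its first *nf-ya1* library of 0 h stood below the other 8.

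AUX/IAA proteins repress auxin-responsive transcription until auxin marks them for breakdown. The AUX/IAA gene Zm00001eb135570 had 39.5, 30.5 and 35.4 FPKM in *nf-ya1*, against 7.12, 6.19 and 7.37 FPKM in W22 at 0 h. After 1 h of heat it had 76.2, 50.6 and 38.9 FPKM in *nf-ya1*, against 19.2, 15.8 and 10.4 FPKM in W22, and at R2h 35.7, 31.2 and 29.0 FPKM against 5.25, 5.54 and 5.93 FPKM. Both genotypes were highest at 1 h, by 0.59 (limma adjusted p = 0.022) in *nf-ya1* and by 0.99 (adjusted p = 0.00114) in W22, and both missed the fold change threshold of 1.

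ATG27 is a membrane protein of autophagosome formation in yeast. The gene annotated as autophagy-related protein 27, Zm00001eb013720, had 0.96, 8.05 and 5.6 FPKM in *nf-ya1*, against 0.23, 0.25 and 0.24 FPKM in W22 at 0 h, 4.49, 3.06 and 2.19 FPKM against 0.35, 0.12 and 0.40 FPKM at 1 h, and 16.6, 10.8 and 13.2 FPKM against 0.17, 0.49 and 0.26 FPKM at R2h. It was the 1 annotated member that rose in recovery in *nf-ya1*, with a log2 fold change of 1.55 (SE 0.39, limma adjusted p = 0.0049). The call was lost without the first library of 0 h, where the log2 fold change was under 1, without the first or the third library of R2h (adjusted p = 0.0217 and 0.0153), and in a fit of the groups compared alone (adjusted p = 0.0892).

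The AAA-type ATPase Zm00001eb302560, of a family that uses ATP to remodel proteins, had 37.6, 55.4 and 21.9 FPKM in *nf-ya1*, against 5.34, 7.89 and 3.06 FPKM in W22 at 0 h. At 1 h it had 13.4, 15.1 and 16.5 FPKM in *nf-ya1*, against 1.79, 2.15 and 2.91 FPKM in W22, and at R2h 9.29, 2.83 and 6.26 FPKM against 1.28, 0.93 and 1.04 FPKM. Its level was lowest at R2h in both genotypes, with log2 fold changes against 0 h of −2.48 in *nf-ya1* (SE 0.36, adjusted p = 5.13e-05) and −1.56 in W22 (SE 0.36, adjusted p = 0.0054). The W22 call was lost without any 1 of 5 of its 6 libraries, with adjusted p up to 0.0336 (without the second of 0 h). In a fit of the groups compared alone both calls were lost (adjusted p = 0.0122 and 0.0132).

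The remaining annotated members had varied functions. The acid phosphatase Zm00001eb350080 had 41.9 to 96.4 FPKM in *nf-ya1* and 2 to 4.28 FPKM in W22 at 0 h. It fell in *nf-ya1* at 1 h (limma log2 fold change −1.88, SE 0.44, adjusted p = 0.00116) and in recovery (−1.96, SE 0.44, adjusted p = 0.00212), the first call being lost under median-ratio scaling (−0.77, adjusted p = 0.122) and the second without the third library of 0 h (adjusted p = 0.0126). The beta-hexosaminidase Zm00001eb288150, of a family that trims sugar residues from glycans, had 27.3 to 35.0 FPKM in *nf-ya1* and 1.17 to 1.86 FPKM in W22 at 0 h and fell in *nf-ya1* at 1 h (−1.19, SE 0.24, adjusted p = 0.00038), a call lost under median-ratio scaling (−0.08, adjusted p = 0.8) and without the third library of 1 h, where the log2 fold change was −0.97. BTB/POZ proteins often serve as adaptors of ubiquitin ligases. The BTB/POZ gene Zm00001eb276280 had 15.9 to 34.6 FPKM in *nf-ya1* and 1.27 to 2.33 FPKM in W22 at 0 h, and its 1 h fall in *nf-ya1* (−1.53, SE 0.48, adjusted p = 0.00864) was lost without any 1 of 4 libraries, with adjusted p up to 0.0475 (without the third of 0 h), and under median-ratio scaling (−0.50, adjusted p = 0.381). The acetyl xylan esterase Zm00001eb271420, which removes acetyl groups from the wall polymer xylan, had 8.33 to 14.6 FPKM in *nf-ya1* and 1.68 to 1.96 FPKM in W22 at 0 h. It fell in *nf-ya1* at R2h (−1.38, SE 0.34, adjusted p = 0.00383), a call lost without any 1 of 4 libraries, with adjusted p up to 0.0224 (without the first of R2h). The last of the 27 annotated members, the acyl-CoA oxidase/dehydrogenase gene described above, passed no heat comparison.

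**Figure D4:**
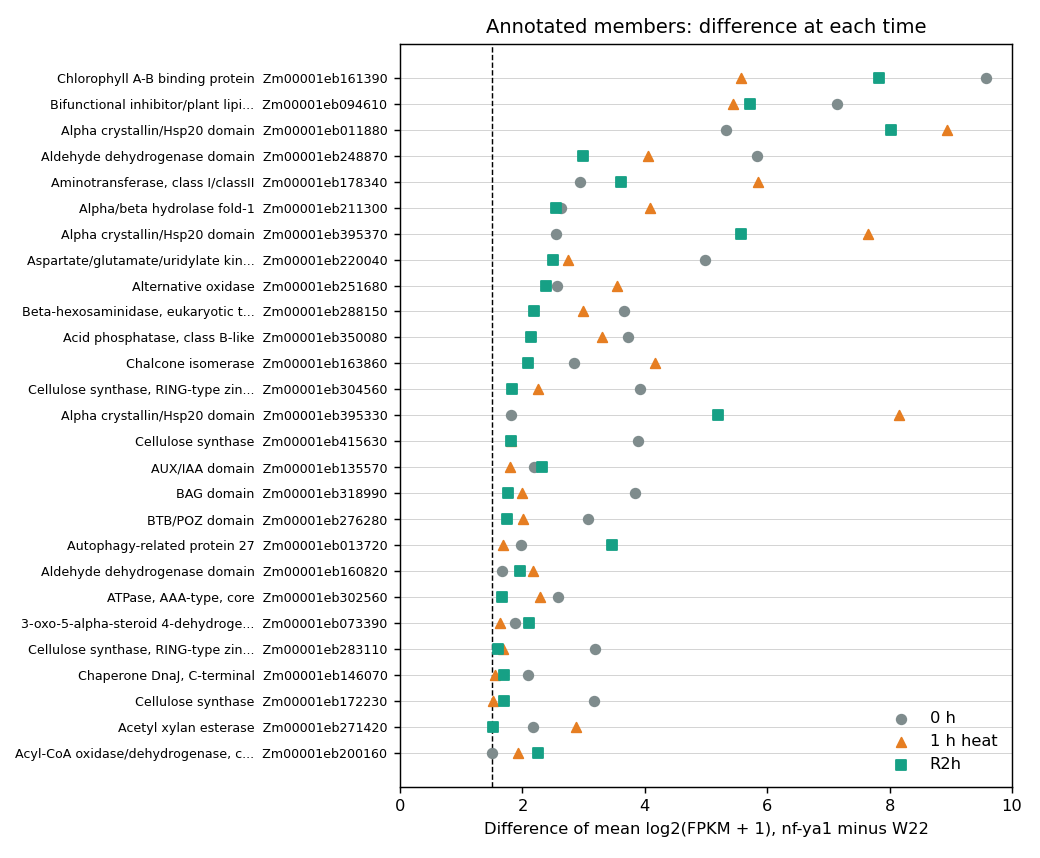
Difference of the mean log2(FPKM + 1), *nf-ya1* minus W22, of the 27 annotated members, with a point for each time. All points lie at or above 1.5 by the rule, and the largest are those of the chlorophyll A-B binding protein Zm00001eb161390 at 0 h (9.57) and of the Hsp20 gene Zm00001eb011880 at 1 h (8.94).

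The fixed lists with other annotated genes held no member. Transporters had 167 annotated genes with 138 tested, of which 23 were higher (16.7%) and 8 lower (5.8%) in *nf-ya1*/W22 at 0 h, 9 (6.52%) and 21 (15.2%) at 1 h, and 7 (5.07%) and 20 (14.5%) in recovery. All tested genes had 14.9% and 5%, 9.06% and 7.33%, and 5.14% and 3.1% at these times. The 8 histone and cyclin genes had 2 higher and 0 lower at 0 h, 4 and 0 at 1 h, and 1 and 0 in recovery. The words of the transcription factor list matched 4 annotated genes and missed larger families that the annotation names by their domain. The annotation used is an alphabetical part, so genes described under other letters may also be missing from every list. Of 110 AP2/ERF domain genes, none of them a member, 83 were tested, with 40 higher (48.2%) and 6 lower (7.23%) at 0 h, 15 (18.1%) and 8 (9.64%) at 1 h, and 4 (4.82%) and 3 (3.61%) in recovery. Of 37 AUX/IAA domain genes, the 32 tested other than Zm00001eb135570 had 7 higher and 1 lower at 0 h, 5 and 7 at 1 h, and 2 and 3 in recovery. Both families were counted after values had been seen. The lists of F-box and ubiquitin ligases (8 annotated), ribosomal proteins (3), uncharacterized proteins (3), glycosyltransferases (1) and jasmonate synthesis (1) were too small to describe, and the other lists matched no gene of the annotation used. Over all 1773 annotated genes tested, 423 were higher and 161 lower at 0 h, 267 and 202 at 1 h, and 137 and 92 in recovery. The study had picked these genes as changed in these libraries, so they are no independent background.

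The heat responses of the 242 genes were set beside those of all tested genes. In *nf-ya1* at 1 h, 22 members rose (9.09%, beside 7.62% of all tested genes) and 84 fell (34.7%, beside 43.7%), and the median log2 fold change was −0.89 over the members and −0.92 over all tested genes. Median-ratio scaling gave 40 members higher (16.5%, beside 15.5% of all tested genes) and 23 lower (9.5%, beside 11%), with medians of 0.12 over the members and −0.06 over all tested genes. Quantile normalization gave 29 higher (12%, beside 13.7%) and 38 lower (15.7%, beside 13.2%), with medians of −0.13 and −0.18. Whether more members rose or fell at 1 h in *nf-ya1* thus changed with median-ratio scaling and not with quantile normalization. At R2h in *nf-ya1*, 18 members rose (7.44%, beside 6.89%) and 48 fell (19.8%, beside 11.6%), with medians of −0.30 and −0.09. Without the second *nf-ya1* library of 0 h, 30 members rose at R2h, and without the third of R2h, 10.

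In the main fit the members gave fewer calls in W22 than in *nf-ya1*. At 1 h this order turned round in a fit of the groups compared alone. There 6 members rose and 60 fell in W22, beside 5.9% and 21.1% of all tested genes. In *nf-ya1* 9 rose and 39 fell, beside 6.27% and 36.7%. It also turned round with a pseudocount of 0.01. The counts were then 9 and 85 in W22 (beside 6.15% and 30.4%) and 16 and 64 in *nf-ya1* (beside 7.87% and 49.5%). Since 108 members stayed below 1 FPKM in all 9 W22 libraries, they could not reach a log2 fold change of 1 on the log2(FPKM + 1) scale, and only the other 134 could be called. In the main fit 5 members rose in W22 at 1 h (2.07% of the 242, beside 5.79% of all tested genes) and 45 fell (18.6%, beside 20.7%). The medians were −0.24 over the members and −0.51 over all tested genes. Counted over genes with a W22 library of 1 FPKM or more, the shares were 3.73% higher and 33.6% lower over the 134 members, beside 6.34% and 22.7% over 20619 tested genes. Median-ratio scaling gave 8 members higher (3.31% of the 242, beside 11%) and 33 lower (13.6%, beside 6.77%), and quantile normalization 7 higher (2.89%, beside 8.96%) and 32 lower (13.2%, beside 7.7%). Whether the members' share of falls in W22 at 1 h lay below or above that of all tested genes thus changed with the scaling and with the genes counted. At R2h 4 rose (1.65%, beside 3.96%) and 5 fell (2.07%, beside 1.87%), with medians of 0 and 0.13, and the 5 became 1 without the first or second W22 library of 0 h or the second or the third of R2h. The third *nf-ya1* library of 1 h, left out of the shared fit, moved the 4 members that rose to 7.

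Set side by side at 1 h, 34 members fell in both genotypes (14%, beside 15.2% of all tested genes), 50 were called lower in *nf-ya1* alone (20.7%, beside 28.5%) and 11 in W22 alone (4.55%, beside 5.4%). Those higher were 5 in both (2.07%, beside 4.22%), 17 in *nf-ya1* alone (7.02%, beside 3.27%) and 0 in W22 alone (beside 1.52%), and 125 were called in neither (51.7%, beside 41.8%). No member was called in opposite directions, beside 0.177% of all tested genes. Of the members called in *nf-ya1* alone, those among the 108 genes low in W22 could not have been called in W22. Among the 27 annotated members, 4 rose and 15 fell at 1 h in *nf-ya1*, beside 7.62% and 43.7% of all tested genes. In W22 0 rose and 4 fell, beside 5.79% and 20.7%. Over all 1773 annotated genes tested, 205 rose and 820 fell in *nf-ya1*, and 172 rose and 514 fell in W22. The study picked the annotated genes as changed, so nothing is read from these counts. The 4 that rose were the 3 Hsp20 genes and the aminotransferase, and the 4 that fell in W22 were the chalcone isomerase, the aldehyde dehydrogenase Zm00001eb160820 and the cellulose synthases Zm00001eb283110 and Zm00001eb304560. A call in 1 genotype alone does not show that the responses differed, which was not tested.

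**Figure D5:**
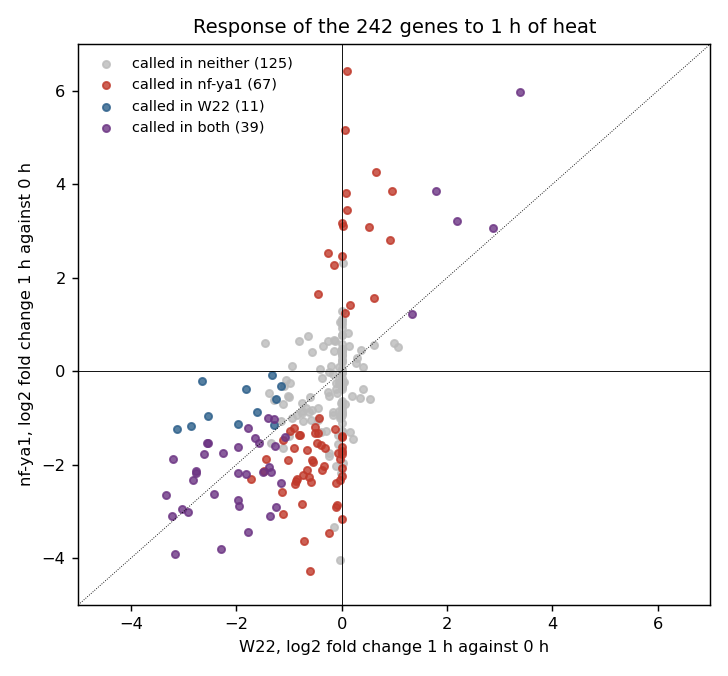
Log2 fold change of 1 h against 0 h of the 242 genes in *nf-ya1* (vertical axis) and in W22 (horizontal axis), 1 point per gene, coloured by the limma calls. Points crowd near 0 on the W22 axis, where 108 genes had no W22 library of 1 FPKM or more, and 34 genes fell in both genotypes.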

How the data were processed

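RNA-seq libraries of leaf RNA were sequenced on the BGISEQ-500 platform and aligned by the authors to genome and gene set V5 of maize line B73. The authors deposited 1 table of FPKM values for 18 libraries. The program that computed them is not given in the sources used here. The table's column of gene IDs carries no names. Descriptions come from the study's supplement, of which the copy used holds 1996 annotated genes in an alphabetical part, all picked by the study on these samples, and none of its values was used. No positions or sequences were matched to the IDs.

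All fits used log2(FPKM + 1), a scale that shrinks changes at low FPKM. Genes reaching an FPKM of 1 in 3 or more libraries were fitted with limma 3.58.1 (R 4.3.3), 1 mean per group and an intensity trend. The Benjamini-Hochberg adjustment ran over 22572 genes, and a call needed an adjusted p not above 0.01 together with a log2 fold change of at least 1 in size. An exact permutation of 3 libraries against 3 cannot go below p = 0.1, hence the moderated model. The fit was tested on simulated data. The simulated libraries were independent, with 1 spread per gene in all groups. This test could therefore not show effects of unequal spread or of dependent replicates. Members were counted with Python 3.11.15 and pandas 2.3.3, and figures drawn with Matplotlib 3.10.9.

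The members, lists and tests were chosen with earlier results of these data known. Named were the 10 members of highest level in *nf-ya1*, the 10 with the largest smallest difference, the 3 with the largest rise and fall per heat comparison, list members and the genes at the threshold, although unannotated ones are mostly given as ranges. All annotated members were added after their values were seen. So were the lists of cellulose synthases, Hsp20 domain, DnaJ, BAG domain, AP2/ERF and AUX/IAA genes, aldehyde dehydrogenases and alternative oxidases. Alternatives were pseudocounts of 0.1 and 0.01, median-ratio and quantile scaling, other filters, thresholds and moderation, a fit of the groups compared alone, the replicate number as a block, and each library left out.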

Additional observations from a re-analysis of the deposited data

Results flagged for a closer look

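The alpha/beta hydrolase gene Zm00001eb211300 stood out because every *nf-ya1* library of 1 h lay above every *nf-ya1* library of 0 h, while every W22 library of 1 h lay below every W22 library of 0 h. Its log2 fold change of 1 h against 0 h was 0.65 in *nf-ya1* and −0.80 in W22, and neither passed the thresholds. The difference between the genotypes was not tested.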

How the results depend on the processing

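The number of genes that met the rule was 242 and became 696 with a pseudocount of 0.1, 869 with 0.01, 515 with a difference of at least 1 and 129 with at least 2; the sign-turned rule gave 57. Median-ratio scaling gave 241 genes, 213 of them shared, and quantile normalization 211, with 196 shared. Without any single library the number ran from 217 to 280.

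In *nf-ya1* at 1 h, the 22 members higher became 40 under median-ratio scaling and 9 with the groups compared alone (19 to 25 without single libraries), and the 84 lower became 23, 38 under quantile normalization and 39 with the groups alone (63 to 101). At R2h, the 18 higher became 9 with a pseudocount of 0.01 and 5 with the groups alone (10 to 30), and the 48 lower became 28 and 20 (32 to 57). In W22 at 1 h, the 5 higher became 8 with pseudocount 0.1, 9 with 0.01 and 8 under median-ratio scaling (4 to 6). The 45 lower became 73 with a pseudocount of 0.1, 85 with 0.01 and 60 with the groups alone (37 to 55). At R2h, the 4 higher became 9 with a pseudocount of 0.1, 8 with 0.01, 9 with the groups alone, 7 at an adjusted p of 0.05 and 7 with no fold change threshold (4 to 7), and the 5 lower became 1 with no filter on low values, 9 with the groups alone, 3 with the replicate block and 9 at an adjusted p of 0.05 (1 to 7). The causes were not tested.

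Same-numbered libraries showed little shared deviation (correlations of −0.17 to 0.097). Such values cannot show whether these samples were grown or handled together. The main fit used no pairing. With the replicate block the members higher and lower were 22 and 81 in *nf-ya1* at 1 h, 16 and 44 at R2h, 5 and 41 in W22 at 1 h, and 5 and 3 at R2h.

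Of 37 calls of annotated members in the heat comparisons, 22 held without any single library of the groups compared and 15 did not (the other groups' libraries were not left out for these calls), and 20 held with the groups compared alone and 25 under median-ratio scaling. None changed direction. Depth per gene is unknown, so the precision of members near 0 in W22 rests on replicates alone.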
